A study of Mus musculus with 4 samples.

Results

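Among germinal center (GC) B cells of the spleen, a transitioning state between centroblasts (CB) and centrocytes (CC) was named in the deposited annotation, and the cells described here are those of that state whose S-phase score was above 0. The S-phase score is the mean log-normalised expression of a list of S-phase genes minus that of control genes, computed by the authors for each cell. The rule selected 1963 of 3758 transitioning cells, out of 9804 annotated GC B cells and 39009 barcodes in all. They are called S-positive transitioning cells below, and the 1795 other transitioning cells are called remaining transitioning cells. Splenic B220+IgD- cells were taken from 8-week-old female mice of C57BL/6J background 10 days after they were given sheep red blood cells, and profiled by droplet-based single-cell RNA-seq of 3' transcript ends. All 4 mice carried 1 allele of Cγ1-cre, which expresses Cre from a switched-isotype constant region and therefore in GC B cells. WT mice had no floxed allele, C mice were Crebbp fl/+, K mice were Kmt2d fl/+, and CK mice were Crebbp fl/+ and Kmt2d fl/+. Each genotype was 1 mouse and 1 library, so genotypes are described and not tested against each other. WT gave 176 S-positive transitioning cells, C gave 333, K gave 570 and CK gave 884.

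GC B cells alternate between a dark zone, where CB divide and mutate their immunoglobulin genes, and a light zone, where CC take up antigen and receive T cell help. Selected cells re-enter the cycle, pass through S phase and then divide in the dark zone. S phase begins when E2F factors switch on genes for origin licensing, nucleotide supply and the replication fork, while genes for mitosis follow in G2. The glycosylase encoded by Ung removes uracil from DNA.

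The subtype name and the score both came from the expression of the same cells. Differences between S-positive cells and the other GC populations are therefore descriptions of the selection, given with no test. Levels are UMIs (unique molecular identifiers, each 1 captured transcript) summed over the cells of a population in a library and scaled to a common total (CPM). Brackets hold 95% intervals, which cover counting error only. Lists of 4 values are always in the order WT, C, K, CK. Where a mean ± SD is given for a contrast of populations, n = 4 libraries, 1 of each genotype.

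Library totals ran from 33270825 to 39803865 UMIs, and the S-positive cells held 961439, 1716470, 3103433 and 3747189 of them. Pairs of libraries shared 17 to 31 barcodes, and 0 S-positive cells had a shared barcode. The state's label was checked against marker lists. All 7 genes of the GC identity list, such as Bcl6, Fas, S1pr2, Rgs13, Mybl1 and Gcsam, were detected, and their summed level was 1488 to 1824 CPM over the 4 libraries. In barcodes chosen by T cell receptor complex genes the same list summed to 80.4 to 111 CPM. The T cell list summed to 10.4 to 26.1 CPM in S-positive cells and to 4764 to 5272 CPM in those T cell barcodes. Natural killer genes reached 5.48 CPM at most, plasmacytoid dendritic genes 1.87 CPM and myeloid genes 1.04 CPM. The plasma cell list, which also holds Xbp1 and Mzb1, summed to 2923 to 3391 CPM, against 123 to 159 CPM in T cell barcodes. It summed to 3735 to 4199 CPM in remaining transitioning cells, 2745 to 3133 in CB and 2040 to 2544 in CC. Of its genes, Sdc1 was at 0 to 0.322 CPM and Prdm1 at 0.267 to 3.12 CPM. Jchain, which GC cells also held in the other populations, was at 1212 to 1539 CPM. Erythroid genes were at 1816 CPM in C because 1 cell held 3104 of their 3117 UMIs, and they were at 7.61 CPM without that cell.

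A set of 4 genes was given as markers of the S-positive cells. Ung encodes the uracil-DNA glycosylase of antibody diversification and lies at chr5:114130386-114139323 on the plus strand of GRCm38. Dtl encodes a substrate receptor of a ubiquitin ligase that removes licensing factors during S phase and lies at chr1:191537356-191575544 on the minus strand. Mcm6 encodes a subunit of the replicative helicase and lies at chr1:128331590-128359664 on the minus strand. Cdca7, a gene periodically expressed in the cell cycle, lies at chr2:72476159-72486893 on the plus strand. Their promoters, from 250 bases before to 50 after the annotated start, are shown because S-phase genes are the class that E2F factors are known to switch on. They come from RefSeq on GRCm38.p6, read in the direction of the gene, with matches to the E2F motifs TTTCCCGC, TTTGGCGC, TTTCGCGC or TTTGCCGC on either strand in capitals. The windows are chr5:114130185-114130484 for Ung, chr1:191575495-191575794 for Dtl, chr1:128359656-128359955 for Mcm6 and chr2:72475969-72476268 for Cdca7.
Ung: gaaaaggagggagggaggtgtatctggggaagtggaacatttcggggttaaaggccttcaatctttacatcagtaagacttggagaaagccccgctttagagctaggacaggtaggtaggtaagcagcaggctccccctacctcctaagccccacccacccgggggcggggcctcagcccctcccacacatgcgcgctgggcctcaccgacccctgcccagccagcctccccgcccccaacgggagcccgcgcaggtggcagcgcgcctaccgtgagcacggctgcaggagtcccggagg
Dtl: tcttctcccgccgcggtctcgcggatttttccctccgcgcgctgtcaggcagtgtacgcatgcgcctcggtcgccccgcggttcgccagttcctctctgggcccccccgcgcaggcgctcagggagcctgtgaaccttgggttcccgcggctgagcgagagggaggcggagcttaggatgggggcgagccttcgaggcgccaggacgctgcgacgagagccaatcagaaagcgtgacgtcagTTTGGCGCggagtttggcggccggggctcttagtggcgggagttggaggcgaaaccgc
Mcm6: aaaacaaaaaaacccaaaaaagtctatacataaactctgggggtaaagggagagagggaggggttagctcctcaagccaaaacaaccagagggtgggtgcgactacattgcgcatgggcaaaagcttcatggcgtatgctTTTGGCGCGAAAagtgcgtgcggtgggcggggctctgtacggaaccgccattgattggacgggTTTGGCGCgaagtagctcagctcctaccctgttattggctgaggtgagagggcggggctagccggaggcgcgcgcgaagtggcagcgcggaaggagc
Cdca7: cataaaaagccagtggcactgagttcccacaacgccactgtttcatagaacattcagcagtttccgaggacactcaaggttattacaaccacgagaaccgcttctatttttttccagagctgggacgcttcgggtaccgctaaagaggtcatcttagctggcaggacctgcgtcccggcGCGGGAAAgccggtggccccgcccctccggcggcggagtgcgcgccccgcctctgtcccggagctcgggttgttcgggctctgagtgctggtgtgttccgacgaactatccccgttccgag
The Dtl window held TTTGGCGC 8 bases before the start. The Mcm6 window held 3 matches, TTTGGCGC at 110 and 47 bases before the start and TTTCGCGC on the other strand at 106 bases, which overlaps the match at 110. The Cdca7 window held TTTCCCGC on the other strand 71 bases before the start, and the Ung window held none of these letters. Of 32851 promoters in the table, 744 (2.26%) held a match. A match describes the sequence and is no evidence of binding.

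The marker genes were higher in S-positive cells than in remaining transitioning cells, CB and CC of each library. Early CB, a smaller population of 38, 110, 190 and 342 cells, held higher levels still, except for Cdca7 in K. Ung was at 68.6 (53.1 to 87.3), 84.5 (71.3 to 99.4), 86.7 (76.6 to 97.7) and 95 (85.4 to 105) CPM. In remaining transitioning cells it was at 4.70, 8.37, 5.57 and 10.8 CPM. The rule split the transitioning cells by S-phase genes, the class of these markers, so this gap follows from the selection. CB and CC were not split by the score, and 21.9% to 53.8% of CB and 4.97% to 11.3% of CC scored above 0. The gaps of the markers to CB and CC therefore also follow in part from the selection. Ung was also low in CB, at 5.20, 5.29, 5.12 and 11.0 CPM, and in CC, at 10.4, 9.56, 13.6 and 12.2 CPM. T cell barcodes gave 15 to 23.5 CPM. Higher levels than in S-positive transitioning cells were found in the cells annotated as early CB, at 149, 135, 133 and 144 CPM, all of which also had S-phase scores above 0. The log2 ratio of Ung was 3.58 ± 0.40 over remaining transitioning cells, 3.73 ± 0.44 over CB and 2.88 ± 0.22 over CC.

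Dtl was at 99.9, 96.1, 83.8 and 118 CPM. It was at 12.7 to 19.5 CPM in remaining cells and, unlike Ung, at 40.6 to 59 CPM in CB. Its log2 ratio was 2.59 ± 0.19 over remaining cells and 1.04 ± 0.18 over CB. Mcm6 varied little among the S-positive cells of the 4 libraries, at 541, 532, 529.7 and 540.4 CPM. Its level was 129 to 163 CPM in remaining cells, 127 to 202 CPM in CB and 73.8 to 109 CPM in CC. Cdca7 was at 121, 136, 137 and 130.2 CPM, against 18.1, 22.7, 34.0 and 39.0 CPM in remaining cells. Early CB held Dtl at 124 to 192 CPM and Mcm6 at 551 to 616 CPM, above S-positive transitioning cells in each library. They held Cdca7 at 145, 161, 122 and 166 CPM, above them except in K. The S-phase list summed to 5805 to 6784 CPM in S-positive transitioning cells and to 9559.7 to 11181 CPM in early CB. In the plot of marker levels, which leaves out early CB, S-positive cells are the highest population shown for these 4 genes, while the mitotic cyclin gene Ccnb2 falls from CB onward.

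**Figure D1:**
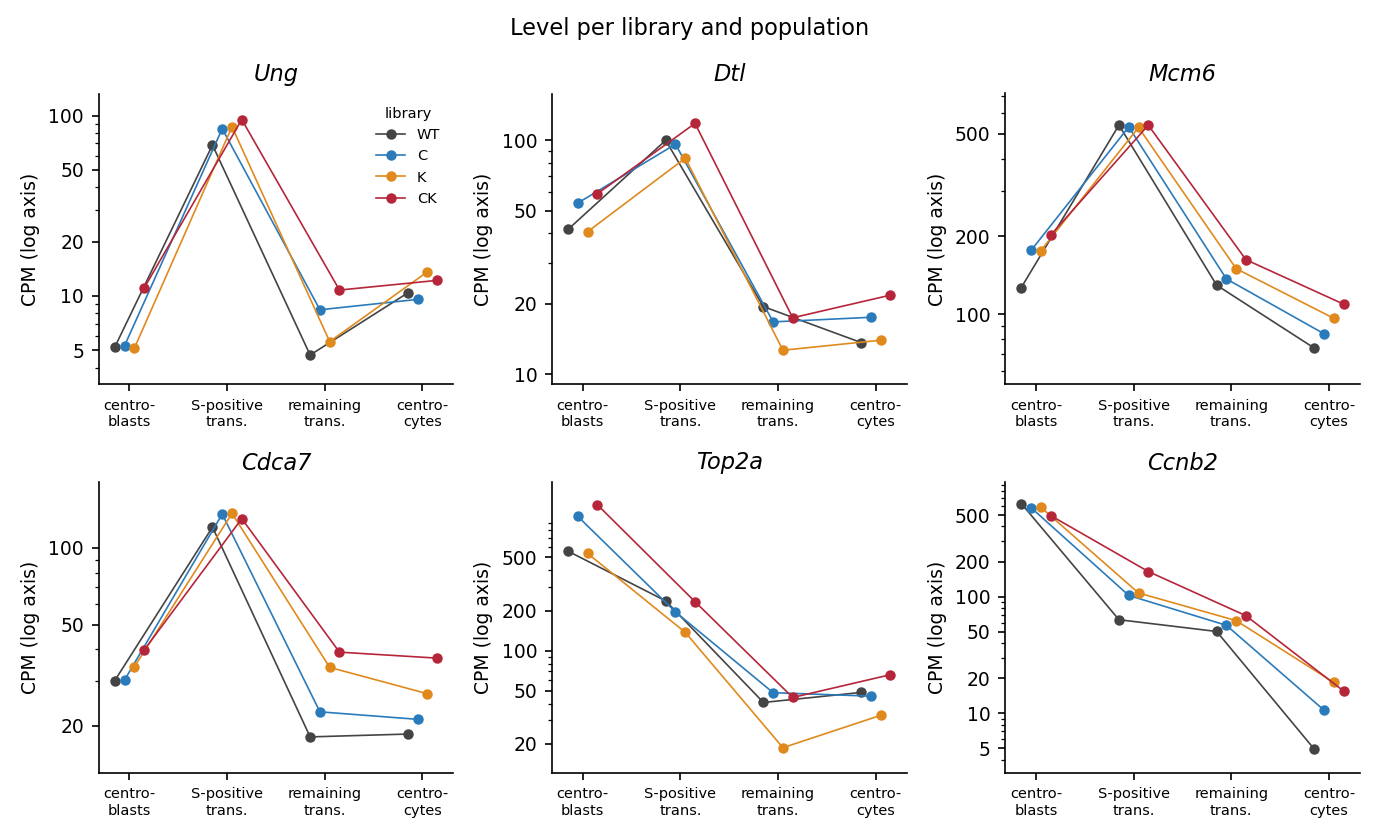
Levels of Ung, Dtl, Mcm6, Cdca7, Top2a and Ccnb2 in CPM on a log axis, 1 line per library, for centroblasts, S-positive transitioning cells, remaining transitioning cells and centrocytes. Among the plotted populations the 4 marker genes are highest in S-positive cells in each library, while Top2a, at 536 to 1242 CPM, and Ccnb2, at 497 to 629.8 CPM, are highest in centroblasts. For the markers, the gap to remaining transitioning cells follows from the score, and the gaps to centroblasts and centrocytes follow from it in part.

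Over remaining transitioning cells, 254 of 7232 genes tested (3.51%) were at least 1.5-fold higher in all 4 libraries and 37 (0.512%) were at least 1.5-fold lower. These shares are the background for the lists that follow. The S-phase list used here to recompute the score held 43 genes, of which 39 could be compared, and all 39 were higher, with a median log2 ratio of 2.23 ± 0.18. That count follows from the rule. Other lists group the genes of DNA replication by role and overlap with the score's list in part. Their counts past the fold therefore also follow in part from the rule. They were not recounted without the shared genes.

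Genes for origin licensing and the helicase were higher for 15 of 17 compared, with a median log2 ratio of 2.07 ± 0.15. Cdc6, which loads the helicase onto origins, was at 37.4, 51.3, 47.4 and 66.2 CPM, and at 1.34 to 2.99 CPM in remaining cells. Its log2 ratio of 4.62 ± 0.39 exceeded those of Mcm10 (3.78 ± 0.23) and Cdc45 (3.51 ± 0.66), which encode factors that activate the helicase. Gins2, a subunit of the active helicase, was at 62.4, 74.6, 86.7 and 88.3 CPM, against 6.71 to 10.8 CPM. Of the replication fork genes, 18 of 22 were higher, with a median of 1.71 ± 0.12. Clspn, whose product links the fork to the checkpoint, was at 78.0, 93.8, 62.2 and 116 CPM and had a log2 ratio of 3.58 ± 0.67. Pclaf encodes a partner of the sliding clamp, and its level was 318, 465, 542 and 584 CPM.

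Nucleotide synthesis genes were higher for 9 of 13 compared, with a median of 1.37 ± 0.16. Rrm2, a subunit of ribonucleotide reductase, was at 60.3, 76.9, 116 and 133 CPM, against 8.11 to 11.4 CPM in remaining cells. Dut, which keeps dUTP out of DNA, was at 657, 662, 816 and 767 CPM and had a log2 ratio of 1.75 ± 0.09. Tk1, of the thymidine salvage route, had 2.74 ± 0.23. Chromatin assembly genes were higher for 9 of 10, with a median of 1.91 ± 0.13. They included the histone chaperone genes Chaf1a, at 66.1 to 99.3 CPM against 4.78 to 17.9, and Asf1b, at 128 to 177 CPM against 22.1 to 29.9. Uhrf1, which directs maintenance methylation to new DNA, was at 54.2 to 69.9 CPM against 7.6 to 10.3.

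Among cyclin and E2F genes of the G1/S boundary, 9 of 15 were higher and 1 was lower, with a median of 1.04 ± 0.04. Ccne1, the gene of cyclin E1, was at 23.9, 37.9, 25.8 and 35.0 CPM, against 4.03 to 6.67 CPM in remaining cells. E2f1 had a log2 ratio of 2.59 ± 0.55. The lower gene was Cdkn1b, which encodes the inhibitor p27, at -0.91 ± 0.34. Ccnd3, the D-type cyclin gene of GC B cells, was level between the populations, at 440.0 to 486 CPM in S-positive and 463 to 496 CPM in remaining cells. Genes of Myc and ribosome biogenesis were higher for 2 of 16, with a median of 0.31 ± 0.04, and the ribosome assembly gene Nop58 had 0.72 ± 0.15. Replication-dependent histone genes, whose transcripts mostly lack the poly(A) tail used for capture, could be compared for 5 of 67 and none passed the fold. Histone genes have near-identical copies, so their counts are uncertain.

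**Figure D2:**
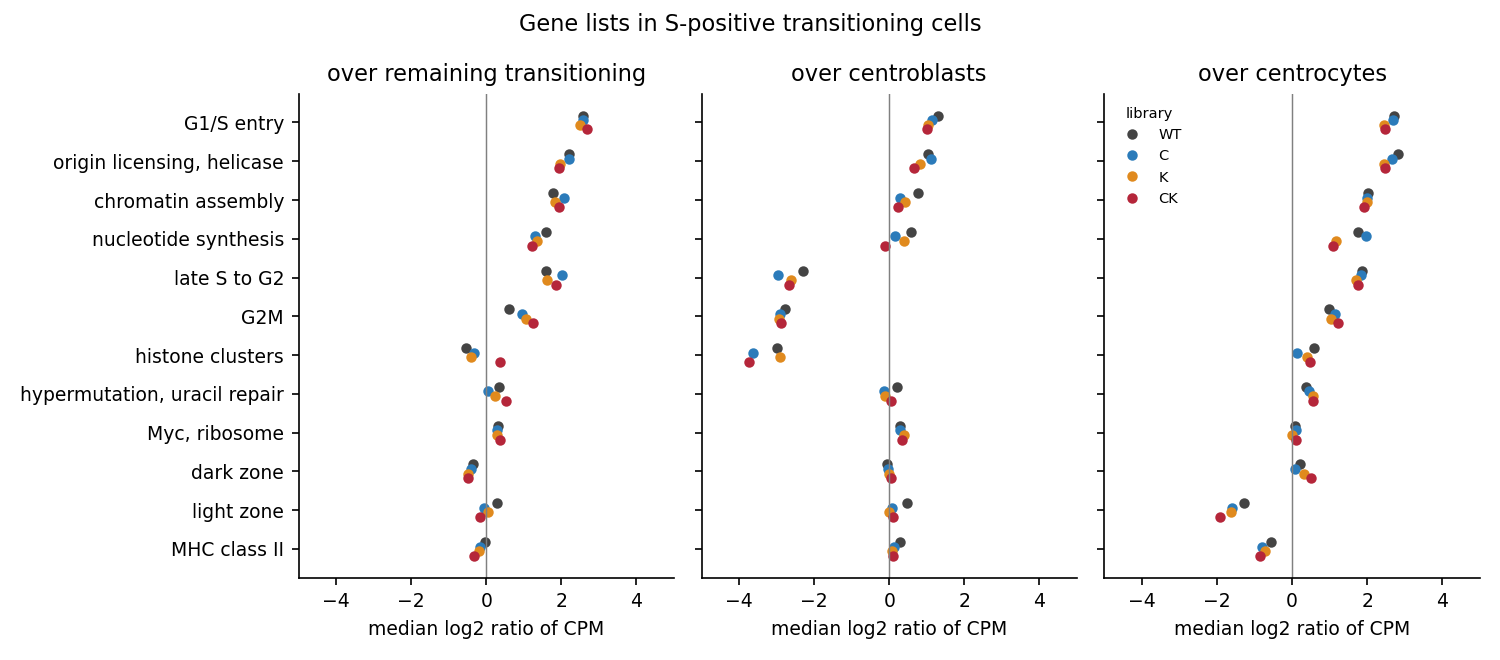
Median log2 ratio of S-positive transitioning cells over remaining transitioning cells, centroblasts and centrocytes for 12 gene lists, 1 point per library. Replication lists lie above 0 over remaining cells and centrocytes, the G2M list lies near -2.87 over centroblasts, and the light zone list lies near -1.61 over centrocytes.

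The genes lowest against remaining cells, ordered by the weakest library, were Gm30054 (-1.12 ± 0.09), Klhl24 (-0.98 ± 0.16), Arl5c (-0.86 ± 0.11), Neurl3 (-1.01 ± 0.28) and Cd2 (-0.78 ± 0.07). Cd2, an adhesion receptor gene, was at 155, 116, 146 and 93.7 CPM, below 275, 208, 235 and 160.0 CPM in remaining cells. Klhl24 was at 38.5, 51.3, 33.5 and 39.8 CPM, against 63.9 to 90.9 CPM. None of these is a gene of the cycle lists.

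Most genes of hypermutation and uracil repair differed from Ung in pattern, and the median over the 13 compared with remaining cells was 0.28 ± 0.20. Summed over the list, the log2 ratio was 0.037 ± 0.035. Any member shared with the S-phase list is higher by the rule. Msh6, a mismatch repair gene, was at 99.9, 96.1, 36.4 and 109 CPM against 24.8 to 50.8. Exo1, an exonuclease gene of the same route, was at 13.5 to 18.7 CPM in S-positive cells and at 0 to 1.03 CPM in remaining cells. Apex1, the nuclease gene acting after Ung, had a ratio of 0.53 ± 0.08. Hmces, which encodes a shield of abasic sites, was at 477 to 634 CPM and had a ratio of -0.12 ± 0.12.

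No gene of the dark zone, light zone, MHC class II or GC identity lists passed the fold over remaining cells. The median was -0.43 ± 0.06 over 4 genes compared of the dark zone list, in which Cxcr4 (-0.52 ± 0.11), Foxp1 (-0.59 ± 0.02) and Foxo1 (-0.28 ± 0.13) were below 0 in all 4 libraries. The authors' dark zone score differed between S-positive and remaining cells by -0.0094, -0.0022, 0.0067 and 0.014 in its medians. The light zone list had a median of 0.02 ± 0.20, MHC class II genes -0.18 ± 0.12 and GC identity genes -0.05 ± 0.04.

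Over CB, 71 of 6958 genes (1.02%) were higher and 269 (3.87%) were lower. The S-phase list divided here, with 16 higher and 4 lower of 42 and a median of 0.47 ± 0.29. Genes of G1/S entry were higher for 8 of 12, with a median of 1.12 ± 0.13. This contrast is with all CB, which held 775 to 1253 CPM of that list. CB with a positive score held 1800 to 2093 CPM and S-positive transitioning cells 2145 to 2399 CPM. For origin licensing and helicase genes the same order gave 1235 to 1992, 2618 to 2878 and 3021 to 3323 CPM. For late S to G2 genes it gave 5743 to 7063, 6365 to 7389 and 1793 to 2340 CPM. The S-phase list was also higher in CB with a positive score, at 6843 to 7828 against 5805 to 6784 CPM in S-positive transitioning cells. The same held for replication fork genes, at 3672 to 3949 against 3111 to 3375 CPM. It held too for nucleotide synthesis (2985 to 3421 against 1719 to 2045 CPM) and chromatin assembly (9518 to 11269 against 4107 to 5951 CPM). Over all CB, helicase genes led the higher side after Ung and Cdca7, with Mcm6 at 1.67 ± 0.29, Mcm2 at 1.59 ± 0.21 and Mcm4 at 1.75 ± 0.30. Genes of late S to G2 were lower for 9 of 10, at a median of -2.63 ± 0.27, and G2M genes for 49 of 51, at -2.87 ± 0.08. Plk1, the kinase gene of mitotic entry, was at 4.08 to 8.81 CPM against 125 to 208 CPM in CB. The kinetochore gene Cenpf was at 9.02 to 23.5 against 313 to 472 CPM. Hmmr (-5.12 ± 0.80) and Ckap2l (-4.53 ± 0.29), both genes of the spindle, were lower by a similar amount. Histone genes were lower for 13 of 14, and Hist1h2ae was at 2.58 to 7.21 CPM against 54.6 to 272 CPM. Top2a, used for decatenation from S phase to mitosis, was intermediate, 2.45 ± 0.36 over remaining cells and -2.00 ± 0.55 over CB.

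Over CC, 453 of 7524 genes (6.02%) were higher and 242 (3.22%) were lower. The leading higher genes were Pclaf (3.26 ± 0.17), the microtubule regulator gene Stmn1 (3.20 ± 0.31), Clspn (3.16 ± 0.31), Rrm2 (3.24 ± 0.35) and the DNA ligase gene Lig1 (3.13 ± 0.34). Light zone genes were lower for 10 of 13, at a median of -1.61 ± 0.27. Il4i1, an amino acid oxidase gene of activated B cells, was at 41.6, 39.0, 22.9 and 20.8 CPM in S-positive cells and at 405, 518, 421 and 458 CPM in CC. Fcer2a, which encodes CD23, had -2.35 ± 0.36, and Nfkbia, the inhibitor gene induced by NF-κB, had -1.73 ± 0.19. Klf2 (-2.08 ± 0.50) and Zeb2 (-2.00 ± 0.45), both transcription factor genes, completed the 5 lowest. MHC class II genes were lower for 5 of 10, at -0.74 ± 0.13, and immediate early genes for 3 of 3, at -1.39 ± 0.29. Follicular B cell genes were lower for 3 of 3 compared, at -2.05 ± 0.25.

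The position of the cells was also read from the deposited pseudotime, as a percentile among the annotated cells of the same library. S-positive cells had a median percentile of 21.1, 28.7, 37.1 and 40.7. Remaining transitioning cells were later in every library, at 47.3, 56.1, 65.7 and 68.6, and CB were earlier, at 14.6, 16.4, 19.6 and 18.4. The distance to remaining cells ranged from -26.2 to -28.5 percentile points. Pseudotime was built from expression, so it is not independent of the score. The authors' clusters ran the same way, since cluster 4 held 66.1% of S-positive cells and cluster 5 held 72.5% of the remaining ones. The make-up differed by library, with cluster 4 at 78.4%, 73.0%, 67.2% and 60.4% of S-positive cells and cluster 3 at 17.0%, 18.9%, 18.9% and 25.6%, so the genotype comparisons within the class are between unequal mixtures of clusters. Across genes, summed profiles correlated with those of remaining cells at r = 0.954, 0.949, 0.962 and 0.959. For early CB r was 0.932, 0.935, 0.962 and 0.964, nearly equal to that of remaining cells in K. Which of these was nearer differed by library, but so did the genes and depth behind them. Remaining cells were compared over 5133 genes in WT and 7130 in CK, and early CB over 3305 and 7048. Early CB held 235276 UMIs in WT and 1744579 in CK. CB gave 0.905 to 0.947, CB with a positive score 0.884 to 0.934 and CC 0.927 to 0.939. The points of these correlations are genes, which share each library's composition, and they carry no p.

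S-positive cells were deeper than remaining cells in each library. Their median UMIs per cell were 5905.5, 5216, 5413 and 4097.5, against 4915, 3751, 4083 and 2958, which is 1.2, 1.39, 1.33 and 1.39 times as many. More RNA per cell and better capture cannot be told apart here. The share of unspliced UMIs was 26.4%, 24.7%, 19.6% and 23.8%, slightly under the 27.2%, 27.0%, 21.3% and 26.3% of remaining cells. Scrublet, which simulates doublets, called 3, 10, 7 and 14 S-positive cells.

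**Figure D3:**
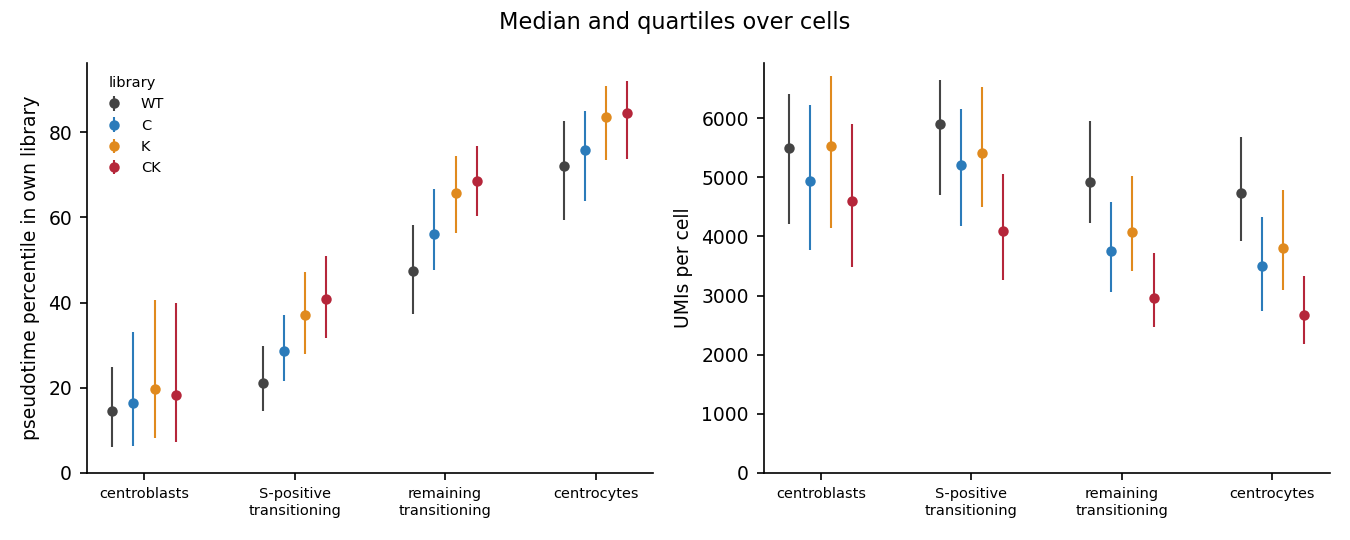
Median and quartiles of the pseudotime percentile (within each library) and of UMIs per cell, by population and library. S-positive cells lie between centroblasts and remaining transitioning cells in pseudotime, with medians of 21.1 to 40.7, and hold more UMIs than remaining cells in all 4 libraries.

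The cut at 0 divides a continuous range of scores from -0.394 to 0.777. The last cell inside scored 0.000418 and the first outside -0.000632. Within 0.02 of the cut lay 159 cells (4.23%), 70 inside and 89 outside. Within 0.05 lay 458 cells (12.2%). The class is therefore a range of one measure and not a separate type.

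A minority of S-positive cells also had a positive G2M score, namely 17 (9.66%), 27 (8.11%), 48 (8.42%) and 136 (15.4%) in the order WT to CK. In these cells the late S to G2 list summed to 4521, 3879.9, 3998 and 4096 CPM, against 1637, 1798, 1977 and 1986 CPM in S-positive cells with no positive G2M score. CB stood above both, at 5743 to 7063 CPM. Early CB held 3978, 4563, 4111 and 4443 CPM, in the range of the cells with a positive G2M score. The G1/S entry list hardly distinguished the groups, at 2018 to 2432 CPM with and 2137 to 2392 CPM without a positive G2M score. Both exceeded the 775 to 1253 CPM of CB and were below the 3141 to 3276 CPM of early CB.

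The share of transitioning cells with a positive score differed between libraries. In the order WT, C, K, CK it was 37.4% (33.0 to 41.9), 43.8% (40.3 to 47.4), 55.4% (52.3 to 58.5) and 59% (56.5 to 61.5), by exact Clopper-Pearson intervals. C exceeded WT by 6.45 percentage points (0.674 to 12.1), K by 18.0 (12.5 to 23.4) and CK by 21.6 (16.4 to 26.7). CK exceeded K by 3.62 points (-0.363 to 7.6), which the counting error covers. Of all annotated cells, S-positive transitioning cells were 14.3%, 16.3%, 22.1% and 22.4%. Positive scores were also more frequent among CB of the mutant libraries, at 21.9%, 41.6%, 40.9% and 53.8%, and among CC, at 4.97%, 5.83%, 9.0% and 11.3%. Among prememory cells they were not, at 15.9%, 12.9%, 9.68% and 13.9%.

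The order of the shares depended on which barcodes the annotation holds. By its own gene counts it ends below 2500 genes per cell, a number that 2 of its cells reach in the matrices, and S-positive cells are deep, with a median of 2153.5 genes in WT and 1720.5 in CK. Barcodes above that limit were given the label of their nearest annotated or unannotated cells, and 259, 117, 162 and 109 of them received the transitioning label. Of these, 80.7%, 86.3%, 90.7% and 91.7% had a recomputed score above its cut. That cut was set to call as many annotated transitioning cells positive as the deposited score. By the recomputed score the share was 37.6%, 44.2%, 54.3% and 59.5% in annotated cells. With the barcodes above the limit added it was 52.9%, 49.8%, 59.3% and 61.7%. C then lay -3.05 points from WT, and the excess was 6.40 points in K and 8.79 in CK. The barcodes above the limit made up 54.1% of the positive cells in WT but 10.1% in CK.

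**Figure D4:**
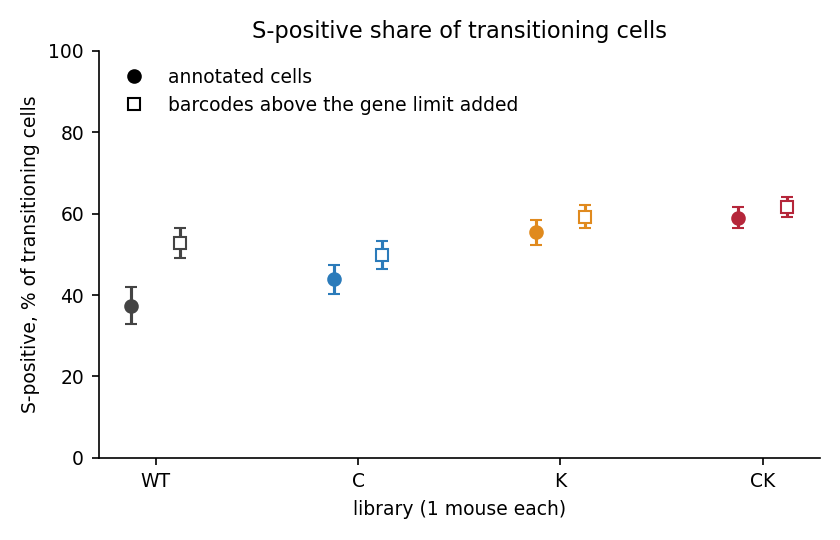
Percent of transitioning cells with a positive S-phase score in each library with 95% counting intervals, for annotated cells (filled circles) and with barcodes above the gene limit added (open squares). Filled circles use the deposited score, and open squares use the recomputed score and its own cut for annotated and added cells alike. The annotated shares climb from 37.4% in WT to 59% in CK, and the shares with added barcodes lie between 49.8% and 61.7%.

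Within S-positive cells, light zone and MHC class II genes were at lower levels in CK than in WT. Other markers moved with this contrast, and their part in it was not tested. T cell genes summed to 10.4 CPM in WT and 25.4 in CK, on 10 and 95 UMIs, and all 3 compared were higher in CK, while 2 of 3 follicular B cell genes were lower and 1 higher. In CK over WT, 768 of 8466 genes (9.07%) were at least 1.5-fold higher and 762 (9.0%) lower, with an all-gene median of 0.01. Of 13 light zone genes, 6 were lower and 0 higher, and the median was -0.57. The same median was -0.09 in remaining transitioning cells and 0.03 in T cell barcodes. Summed over the list, the log2 ratio was -0.64 (-0.76 to -0.52) in S-positive cells, and it differed from that in remaining cells by -0.47 (-0.65 to -0.30). Other cells with positive scores also held less in CK than in WT. The list summed to 1262, 876, 801 and 632 CPM in early CB and to 692, 660.1, 672 and 496 CPM in CB with a positive score. With barcodes above the gene limit added the median was -0.22, and in cells thinned to 2000 UMIs it was -0.38.

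Cd86, the costimulatory ligand gene at chr16:36603869-36666081, was at 112, 72.2, 67.3 and 50.4 CPM. In remaining cells it was at 60.4, 66.4, 73.5 and 64.1 CPM, and CK was not below WT there. CK over WT was -1.16 (-1.5 to -0.80) in S-positive and 0.09 in remaining cells. Adding the barcodes above the gene limit gave -0.67. Cd83, which stabilises MHC class II and CD86 at the surface, was at 160.2, 145, 134 and 108 CPM, and at 83.2 to 108 CPM in remaining cells. The survival gene Bcl2a1b (-0.77), the T cell help receptor gene Cd40 (-1.43) and Il4i1 (-1.0) were lower in CK too. Fcer2a was at 67.6, 53.6, 25.5 and 16.3 CPM, but its ratio of -2.05 was the same in remaining cells. Nfkbia (-0.18) and Traf1 (-0.14), both NF-κB targets, had intervals that include 0.

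MHC class II genes, which display antigen to T cells, had a median of -0.52 in CK, with 3 of 10 lower, and -0.22 in remaining cells. Their sum differed between these populations by -0.29 (-0.31 to -0.26). Early CB fell too, from 37352 CPM in WT to 26284 in CK, as did CB with a positive score, from 32519 to 25704 CPM. H2-Eb1 was at 2637, 1998, 2578 and 1716 CPM, a ratio of -0.62 for CK. Ciita, the master regulator gene of the class, was at 142, 111, 95.1 and 83.8 CPM, and CK over WT was -0.77 in S-positive and -0.53 in remaining cells. The median with barcodes above the gene limit was -0.27.

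**Figure D5:**
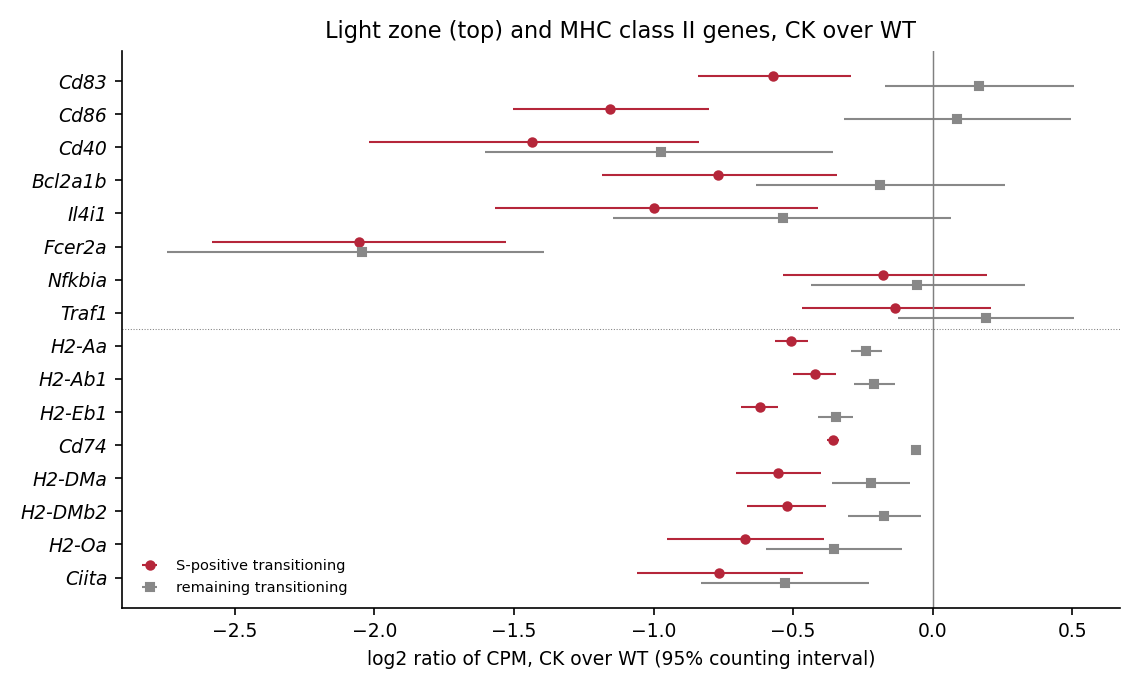
Log2 ratio of CK over WT with 95% counting intervals for 8 light zone and 8 MHC class II genes, in S-positive (red circles) and remaining (grey squares) transitioning cells. Cd86 lies at -1.16 in S-positive and 0.09 in remaining cells, while Fcer2a lies at -2.05 in both.

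The medians of the S-phase and G2M lists lay above 0 in CK over WT. Of 46 G2M genes, 18 were higher in CK and 0 lower, with a median of 0.42, which was 0.12 in remaining cells and 0.39 in T cell barcodes. S-phase genes had a median of 0.24, close to the 0.28 of remaining cells and the 0.23 of T cell barcodes. Hypermutation and uracil repair genes had 0 of 16 past the fold. The genes highest in CK by the naming rule were Slpi, Ccnb2, Rrm2, Rgcc and Hmgb3. Slpi, a protease inhibitor gene, was at 42.6, 123, 94.4 and 141 CPM, and its ratio of 1.72 was 1.48 in remaining cells. Ccnb2 was at 63.4, 103, 108 and 164 CPM, with a ratio of 1.37 against 0.45 in remaining cells and 0.39 in T cell barcodes. Rrm2 had 1.15 (0.75 to 1.56) against -0.08 in remaining cells, but 0.15 once barcodes above the gene limit were added. Rgcc, a cell cycle regulator gene, was at 102, 168, 161 and 206 CPM, a ratio of 1.02 against 0.54 in remaining cells and -0.09 in T cell barcodes. Hmgb3, a chromatin protein gene, had 1.01 against 0.56 and 0.39. The lowest were Gm47283, Gsn, Pld4, Cd86 and AC149090.1. Gm47283 was also lower in T cell barcodes (-2.18 beside -2.31), as was the nuclease gene Pld4 (-1.07 beside -1.37). Gsn, the gelsolin gene of actin severing, was at 175, 116, 91.5 and 67.0 CPM, a ratio of -1.38, and at -0.03 in T cell barcodes.

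In C over WT, 463 of 7499 genes (6.17%) were higher and 558 (7.44%) lower. Light zone genes were lower for 5 of 13, with a median of -0.14 that became 0.05 in thinned cells. In K over WT, 521 of 8008 genes (6.51%) were higher and 1928 (24.1%) lower, and the all-gene median was -0.13. The K library stood apart in T cell barcodes too, where that median was -0.19. In S-positive cells of K, origin licensing genes had a median of 0.01 with 1 of 19 lower, and fork genes 0.14 with 4 of 23 lower. The S-phase list had 0.14, with 11 of 43 lower and 5 higher. In T cell barcodes of K the medians of these lists were -0.43, -0.28 and -0.57, below the all-gene median there. Single genes were low in both populations, such as Mcm4 (-0.86 in S-positive cells, -1.51 in T cell barcodes), Dnmt1 (-1.09 and -1.58) and Msh6 (-1.46 and -1.30), and were chosen here after their values were seen. Light zone genes had a median of -0.47 in K, with 6 of 13 lower, against 0.03 in T cell barcodes.

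The floxed genes were read by 3' tags, and the sources used here do not give the deleted exons' position relative to these tags, so their levels do not check the deletion. Crebbp was at 85.3, 41.4, 33.2 and 38.4 CPM. It was thus as low in K, which has no floxed Crebbp allele, as in C and CK, and T cell barcodes gave 78.4, 83.5, 49.3 and 62.6 CPM. Kmt2d was sparse, at 17.7, 21.0, 8.70 and 13.3 CPM.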

How the data were processed

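B220 MicroBead-enriched B220+IgD- splenic cells were sorted, and 1 library per genotype was made. The authors counted UMIs with Cell Ranger on mm10, and the deposited files list raw UMI counts for each gene and barcode. The file headers give version 3.0.2, the paper 3.0.0 and the processing notes 3.0. The deposited cell table holds counts, the percent of mitochondrial UMIs, and a module score per gene list from AddModuleScore in Seurat 4.0. It also holds subtype names that the authors transferred from earlier data sets, and a slingshot 2.4.0 pseudotime rank made for each mutant library with WT. The WT ranks are those of the pair with C, so percentiles within a library were used. It covers GC B cells, and the study does not state its limits of 2500 genes and 8% mitochondrial UMIs. In 79.9% of cells the table and the matrices gave equal UMI totals, and the greatest gap was 5.

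Counts were summed per library and population and expressed as CPM. A gene entered a comparison when both populations together held 20 UMIs, a gene at 0 was set at 3 counts, and past the fold means 1.5-fold, in all 4 libraries where populations are compared. Intervals were exact Poisson, conditional binomial or Clopper-Pearson. T cell barcodes were unannotated barcodes with at least 2 UMIs of Cd3d, Cd3e, Cd3g or Trac, 0 of Cd79a, Cd79b and Ms4a1, and under 8% mitochondrial UMIs. For barcodes above the gene limit, the label was the most frequent among 25 nearest cells in 30 principal components of 2000 variable genes, by which 91.1% of annotated transitioning cells received their own label. The S score was recomputed with 5 control genes per gene in 24 bins, and correlated with the deposited one at Spearman 0.961 across transitioning cells. It was cut not at 0 but at the rank that called 1963 transitioning cells positive, as many as the deposited score did. By these cuts 93.9% of transitioning cells fell on the same side, with the numbers on each side matched by construction. Doublets were not removed, and Scrublet, at an expected rate of 0.06, called 3.37% to 5.34% of barcodes. The correlations of profiles used genes with at least 50 UMIs and a pseudocount of 1 CPM.

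The members and the gene lists were chosen with earlier results of these data known. Named genes were the 4 markers, members of the lists, and the highest 10 and lowest 5 over remaining cells and 5 each over CB and CC, ordered by the weakest library, at 50 CPM or more in one population of every library and 50 UMIs over both. For CK over WT they were the 5 highest and 5 lowest with 100 CPM or more in either library and 50 UMIs in total, where C and K lay on the side of CK. Immunoglobulin variable and mitochondrial genes were left out, and some genes of the lists are not reported here. Gene coordinates are from GENCODE vM21. Alternatives covered the score limit, doublets, thinning, scaling, UMI filters, list totals and reference cells, and those leaving out a library or the erythroid-rich cell were chosen after seeing the data. Scripts were tested on simulated data. Versions were python 3.11.15, numpy 2.4.6, scipy 1.17.1, pandas 2.3.3, scanpy 1.11.5, scikit-learn 1.9.0 and matplotlib 3.10.9.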

Additional observations from a re-analysis of the deposited data

Results flagged for a closer look

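Of 342 genes and 24 lists examined, 2 genes had a log2 ratio of S-positive over remaining transitioning cells whose counting interval lay above 0 in 1 library and below 0 in another. Odc1, the ornithine decarboxylase gene of polyamine synthesis, had 0.32 (0.04 to 0.60) in K and -0.55 (-1.0 to -0.11) in C. Its level in S-positive cells was 78.0, 43.7, 102 and 62.7 CPM. Cd86 had 0.90 (0.48 to 1.32) in WT and -0.35 (-0.68 to -0.01) in CK. With 1 library per genotype, the difference was not tested for either gene.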

How the results depend on the processing

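No paired analysis was possible because each genotype is 1 library. Populations were contrasted within each library, and no test was made of them because the rule used the same expression. For the main shares, depth ratios, counts past the fold and list medians, 243 alternative values were computed. Of these, 183 were labelled the same, 59 moved and 1 reversed. For values with a spread, the same means a change smaller than that spread, so size and even sign could differ. The light zone median over remaining cells went from 0.023 to -0.068 without WT, within its spread of 0.203. The excess of C over WT went from 6.45 to 1.97 points as a share of annotated cells, within its spread of 5.73. For single genes and the other lists 444 of 508 were labelled the same, 58 moved and 6 reversed. The cause was not tested for any of these.

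As a share of annotated cells, the excess over WT was 7.72 points in K and 8.02 in CK. When barcodes above the gene limit were added, C lay -3.05 points from WT, K 6.40 and CK 8.79 by the recomputed score. The depth ratios of WT, C and K were then 1.49, 1.53 and 1.45. Over remaining cells, genes higher and lower past the fold were 129 and 18 in thinned cells, 106 and 11 with at least 100 UMIs, and 398 and 99 with no filter beyond 1 UMI. Over CB, 169 were lower in thinned cells, 29 were higher and 122 lower with at least 100 UMIs, and 146 were higher with no filter. Over CC the counts were 299 and 135 in thinned cells, 252 and 101 with at least 100 UMIs, and 367 were lower with no filter. With 1 library left out, 65 to 79 genes were lower over remaining cells, 97 to 127 higher over CB and 280 to 384 lower over CC. These counts ask for 1 library fewer.

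List totals gave 0.037 for hypermutation and 0.41 for Myc and ribosome genes over remaining cells, and -0.031 for the latter over CB. For genotypes, K had 1266 lower in thinned cells, 834 higher relative to the median of all genes, 801 lower relative to remaining cells, and 923 higher and 693 lower relative to T cell barcodes. C had 729 higher on that last scale. With at least 100 UMIs the counts higher and lower were 60 and 71 in C, 146 and 673 in K, and 198 and 187 in CK. With no filter they were 1512 and 2657 in C, 890 and 4700 in K, and 1153 and 3505 in CK. With barcodes above the gene limit 293 were higher in K and 419 in CK.

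The light zone median of CK was -0.38 in thinned cells and -0.22 with barcodes above the gene limit. That of C became 0.048 and 0.026. The MHC class II median of CK was -0.54 above a score of 0.05, -0.42 in thinned cells, -0.40 as a list total, -0.43 relative to T cell barcodes, and -0.27 both relative to remaining cells and with barcodes above the gene limit. That of K became 0.076 relative to the median of all genes and 0.093 with barcodes above the gene limit. The S-phase median of CK became -0.055 relative to remaining cells. Thinning kept 164 of 176 S-positive cells in WT and 852 of 884 in CK.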
